A study of Homo sapiens with 9 samples.

Results

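The genes described here are the expressed long intergenic noncoding RNA genes of SW480 colorectal cancer cells that carry a name made of LINC and a number. They were chosen by name from the transcript count table. For each name the transcript with the highest total count was kept, and a total of at least 30 reads over the 9 libraries was required. This left 71 of the 187 LINC genes listed, among 20878 genes in all. Of the other 116 LINC genes, 38 had no read in any library and 78 had between 1 and 29. Just inside the threshold were LINC00310 with 30 reads, LINC00518 with 33 and LINC00485 with 34, and just outside it LINC00327 with 28, LINC00652 with 27 and LINC00628 with 26. The threshold used the sum over all 3 lines and no difference between them. A gene could still reach it through 1 line: 12 of the 71 had under 30 reads outside the APC line, 7 outside CONTROL and 9 outside SW480. Of the genes tested below, LINC00479, LINC00565 and LINC00592 had 10, 23 and 27 reads outside the APC line, so part of their excess there is set by the choice of genes.

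Polyadenylated RNA of 3 lines was sequenced, with 3 libraries each. The line called APC (D2.15) was SW480 with pEF-mycAPC, a plasmid for myc-tagged APC, and was grown in G418 at 1.5 mg/ml. CONTROL (R38.7) was SW480 with the empty pEF plasmid in the same concentration of G418. SW480 was the parental line, which lacks functional APC, without G418. The APC protein helps target beta-catenin, the effector of Wnt signalling, for degradation. All lines were passaged 3 times and harvested 72 h after plating. APC was plated more thinly, with 2 cells for every 3.35 of CONTROL or SW480, and the difference in plating and the difference in line cannot be told apart. Each derivative was a single line and the replicates were parallel plates, so every p-value below describes the spread among plates of 1 line and not among independent lines.

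Long noncoding RNAs are transcripts made by RNA polymerase II that are spliced and polyadenylated like mRNA but do not carry a long open reading frame. Some act in the nucleus near the gene that makes them, some bind proteins in the cytoplasm, and for many no function is known. The LINC names are provisional, given by position between coding genes. In the RefSeq gene table of GRCh38.p14, 58 of the 71 genes were still listed as noncoding, 11 as protein coding and 2 as transcribed pseudogenes. Under a new symbol stood 25 of them, for example LINC00657 as NORAD, LINC00152 as CYTOR and LINC00338 as SNHG20. The genes lay on 22 chromosomes, and the transcripts counted were 492 to 11193 bases long, with a median of 2107.

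Promoter windows are shown first, for genes whose levels differed between the lines. Each holds 300 bases around the RefSeq start (GRCh38.p14), most of them before it, on the gene's own strand. LINC00511 and LINC00673 are neighbours on one strand of chromosome 17 and were both higher in the APC line, LINC00460 and LINC00494 were higher and hold the letters searched below, and LINC00668 and LINC00674 were lower. Capitals mark matches to TGANTCA, the core recognised by AP-1, and to CACGTG, the E-box recognised by MYC.
LINC00511, chr17:72640423-72640722, minus strand: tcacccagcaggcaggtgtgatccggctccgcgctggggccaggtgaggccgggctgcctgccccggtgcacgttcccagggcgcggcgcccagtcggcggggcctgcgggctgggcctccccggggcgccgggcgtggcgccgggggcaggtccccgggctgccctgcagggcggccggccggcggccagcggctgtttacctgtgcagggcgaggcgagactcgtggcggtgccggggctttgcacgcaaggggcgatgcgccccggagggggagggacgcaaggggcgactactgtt
LINC00673, chr17:72592755-72593054, minus strand: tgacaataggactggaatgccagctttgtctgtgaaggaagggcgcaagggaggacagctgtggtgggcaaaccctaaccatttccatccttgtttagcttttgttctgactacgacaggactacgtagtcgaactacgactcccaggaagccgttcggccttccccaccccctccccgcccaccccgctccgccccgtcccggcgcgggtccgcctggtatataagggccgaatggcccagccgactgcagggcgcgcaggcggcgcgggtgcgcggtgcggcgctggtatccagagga
LINC00460, chr13:106376314-106376613, plus strand: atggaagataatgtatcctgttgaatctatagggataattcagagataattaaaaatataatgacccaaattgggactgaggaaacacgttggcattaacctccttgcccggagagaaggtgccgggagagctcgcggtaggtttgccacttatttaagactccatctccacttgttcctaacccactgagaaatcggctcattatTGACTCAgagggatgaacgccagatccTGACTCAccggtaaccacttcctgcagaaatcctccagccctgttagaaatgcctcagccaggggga
LINC00494, chr20:48359661-48359960, plus strand: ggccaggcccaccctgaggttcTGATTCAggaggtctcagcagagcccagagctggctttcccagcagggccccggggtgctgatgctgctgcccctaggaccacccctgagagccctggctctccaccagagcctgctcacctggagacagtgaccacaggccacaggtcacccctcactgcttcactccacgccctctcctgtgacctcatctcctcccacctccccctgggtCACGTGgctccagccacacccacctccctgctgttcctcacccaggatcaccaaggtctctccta
LINC00668, chr18:6929820-6930119, minus strand: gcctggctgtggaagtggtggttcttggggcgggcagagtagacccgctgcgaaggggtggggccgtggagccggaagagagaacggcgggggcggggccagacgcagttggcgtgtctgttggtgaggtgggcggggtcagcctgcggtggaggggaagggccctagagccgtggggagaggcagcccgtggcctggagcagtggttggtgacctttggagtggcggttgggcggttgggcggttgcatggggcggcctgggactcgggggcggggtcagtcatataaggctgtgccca
LINC00674, chr17:68101305-68101604, plus strand: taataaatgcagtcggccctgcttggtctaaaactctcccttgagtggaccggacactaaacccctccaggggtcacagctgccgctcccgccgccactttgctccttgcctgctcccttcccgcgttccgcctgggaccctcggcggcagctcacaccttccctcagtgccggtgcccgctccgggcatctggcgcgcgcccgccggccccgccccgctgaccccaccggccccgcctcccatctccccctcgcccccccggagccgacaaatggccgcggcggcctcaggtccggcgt

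Of the 58 noncoding genes, 44 had such a window. Letters of 5 kinds were searched in them on both strands and counted once per window. AP-1 letters TGANTCA occurred in 7 of the 44, against 7.71% of 35116 windows of all genes, and CACGTG in 4, against 7.26%. The TCF/LEF letters CTTTGAT and CTTTGTT occurred in 1 and 3 windows, against 2.62% and 5.2%, and the NF-kappaB consensus in none, against 1.91%. Among the 10 windows of genes that were higher in the APC line in both comparisons, 2 had the AP-1 letters, 1 had CACGTG and none had either TCF/LEF form. Among the 11 windows of genes that were lower in both, those counts were 3, 1 and 0. In LINC00460 the AP-1 letters began 44 and 17 bases before the start, and in LINC00494 they began 228 bases before it, with CACGTG 15 bases before it. A match is letters only, and nothing about binding was measured here.

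Library totals ran from 16456738 to 19358025 reads over all genes, and a count of 3 corresponded to 0.155 to 0.182 CPM, the read count scaled to library size. CPM values below use library sizes adjusted by TMM. Fitted values are log2 fold changes ± SE (standard error), from edgeR over the 14255 genes with enough reads. A gene was called at a Benjamini-Hochberg adjusted p under 0.05. The APC transcript itself averaged 145 ± 5.0 CPM in APC libraries, with 47.9 ± 1.59 CPM for CONTROL and 49.3 ± 2.46 CPM for SW480 (SD, n = 3 each), and AXIN2, a feedback target of beta-catenin, at 86.0 ± 3.36, 571 ± 5.43 and 748 ± 22.1 CPM in the same order. All 7 epithelial markers were detected in every line. Of these CDH1, VIL1, EPCAM and KRT8 were higher in APC than in SW480, by 4.20 ± 0.08, 3.89 ± 0.26, 2.95 ± 0.04 and 0.20 ± 0.04 on the log2 scale, and CDX2, KRT19 and KRT18 were lower, by 0.86 ± 0.07, 0.28 ± 0.06 and 0.09 ± 0.04. Of 4 neural markers the summed level was 26.1 to 30.9 CPM for APC, 78 to 84.9 CPM for CONTROL and 122 to 138 CPM for SW480, most of it TUBB3. The part of either marker set in the results below was not tested. The summed leukocyte, fibroblast and endothelial markers stayed at or below 18.3 CPM in every library. In bulk RNA, fewer cells expressing a gene and less of its RNA per cell cannot be told apart.

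LINC transcripts were a small share of the reads. Together the 71 genes took 0.0958 to 0.0973% of the reads of an APC library, 0.1055 to 0.109% of a CONTROL library and 0.1298 to 0.1346% of an SW480 library, and the 3 lines did not overlap. Without LINC00657 (NORAD) the shares were 0.0426 to 0.0434%, 0.0476 to 0.0484% and 0.051 to 0.0536% in the same order. Per length, the mean over the 9 libraries was 0.0444 to 106 RPKM, which is the read count divided by transcript length and library size, with a median of 0.574 RPKM, against a median of 7.09 RPKM for all genes tested. An RPKM of at least 1 was reached by 31 of the 71. In 60 of the 71 each line had at least 10 reads.

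NORAD, a long cytoplasmic RNA known for its part in genome stability, had the highest level per length. It had 548, 555 and 533 CPM in the APC libraries, 607, 586 and 612 CPM in the CONTROL libraries and 775, 785 and 783 CPM in the SW480 libraries. All 3 APC libraries lay below all CONTROL libraries, and these below all SW480 libraries. NORAD fell in the APC line by 0.52 ± 0.04 on the log2 scale against SW480 (edgeR adjusted p = 7.7e-15) and by 0.14 ± 0.04 against CONTROL (edgeR adjusted p = 0.00073), and in CONTROL by 0.38 ± 0.04 against SW480 (edgeR adjusted p = 1.1e-10).

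CYTOR (LINC00152), a cytoplasmic RNA studied in many tumours and named for the cytoskeleton, came next per length. Its level was 68.3 ± 4.21 RPKM for APC, 84.9 ± 3.27 RPKM for CONTROL and 75.7 ± 6.10 RPKM in SW480 (SD, n = 3 each). In CPM it had 59.3, 65.5 and 64.1 in APC, 74.2, 80.8 and 78.0 in CONTROL and 63.3, 66.7 and 74.9 in SW480, so that APC lay below CONTROL while APC and SW480 overlapped. The change was −0.30 ± 0.06 for APC against CONTROL (edgeR adjusted p = 1.5e-05) and 0.19 ± 0.05 for CONTROL against SW480 (edgeR adjusted p = 0.0052), and APC against SW480 missed the threshold at −0.12 ± 0.06 (edgeR adjusted p = 0.059). Without SW480 replicate 1 that last value was −0.17 and passed (edgeR adjusted p = 0.006). CYTOR has a near-identical paralog, and how the authors divided reads between the copies is not given in the sources used here, so its level is uncertain.

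The remaining genes of the 10 highest per length spanned 24.2 RPKM for LINC00493 to 5.80 RPKM for LINC00173, as means over all libraries. LINC00493 (SMIM26), LINC00116 (MTLN) and LINC00674 were among them, as were LINC00673, LINC00338, LINC00467 and LINC00339. LINC00339 fell by 0.41 ± 0.11 in the APC line against SW480 and by 0.30 ± 0.12 against CONTROL (edgeR adjusted p = 0.021), and the second was lost without APC replicate 3 (−0.20), CONTROL replicate 1 (−0.25) or CONTROL replicate 2 (−0.29).

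The first comparison set the APC line against the line it came from. Of the 71 genes, 55 had enough reads to be tested, and 39 of them were called, 14 being higher in the APC line and 25 lower. Over all genes tested, 72.5% were called, 35.6% higher and 36.9% lower. Log2 fold changes of the 55 had a median of −0.25, against −0.01 for all genes, and a median size of 0.84, against 0.35. A called change of over 2-fold was seen in 9 genes that were higher and 11 that were lower, against 7.91% and 11.1% of all genes tested. In 37 of the 55 the APC and SW480 libraries did not overlap, against 73.1% of all genes. LINC genes have low counts, and low counts give wider errors: among the 27 with a total below 300 reads, 18 were called, against 62.3% of all genes tested in that range. Wider errors also enlarge the size of fitted changes. The median size was not computed for all genes in that range, so 0.84 against 0.35 is not matched for counts. The same holds for the median sizes in the other comparisons below. LINC00479 and LINC00592 reached the minimum of 0.547 CPM in 3 libraries through the APC line alone, so their entry to the test depended on the difference itself. Without them 37 of 53 were called, 12 higher and 25 lower, with 7 over 2-fold higher and a median of −0.35. LINC00565 and LINC00312 stayed among the 53 and were called. LINC00565 needed APC libraries to reach that minimum in 3 libraries, and LINC00312 needed SW480 libraries. The reduced counts thus still hold calls whose entry depended in part on the difference.

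Against CONTROL, which carries the plasmid without APC, 35 of the 55 were called, 16 higher and 19 lower in the APC line, against 70.2% of all genes tested, 34.8% higher and 35.4% lower. Called changes of over 2-fold numbered 11 higher and 9 lower, against 8.63% and 9.69% of all genes. Without LINC00479 and LINC00592 33 of 53 were called, 14 of them higher and 9 of these over 2-fold. LINC00565 stayed among these, although it needed APC libraries to enter the test. Log2 fold changes of the 55 had a median of −0.30, against −0.01, and a median size of 0.63, against 0.34. Libraries of the 2 lines did not overlap in 39 of the 55, against 73.4% of all genes. Of the 27 genes with a total below 300 reads, 13 were called, against 56.4% of all genes tested in that range. Both comparisons use the same APC libraries, so their values stand side by side below and neither is a check on the other. The 3 APC libraries lay above all 6 others in 12 genes, LINC00479 and LINC00592 among them, and below them in 16, against 28.3% and 28.7% of all genes tested.

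**Figure D1:**
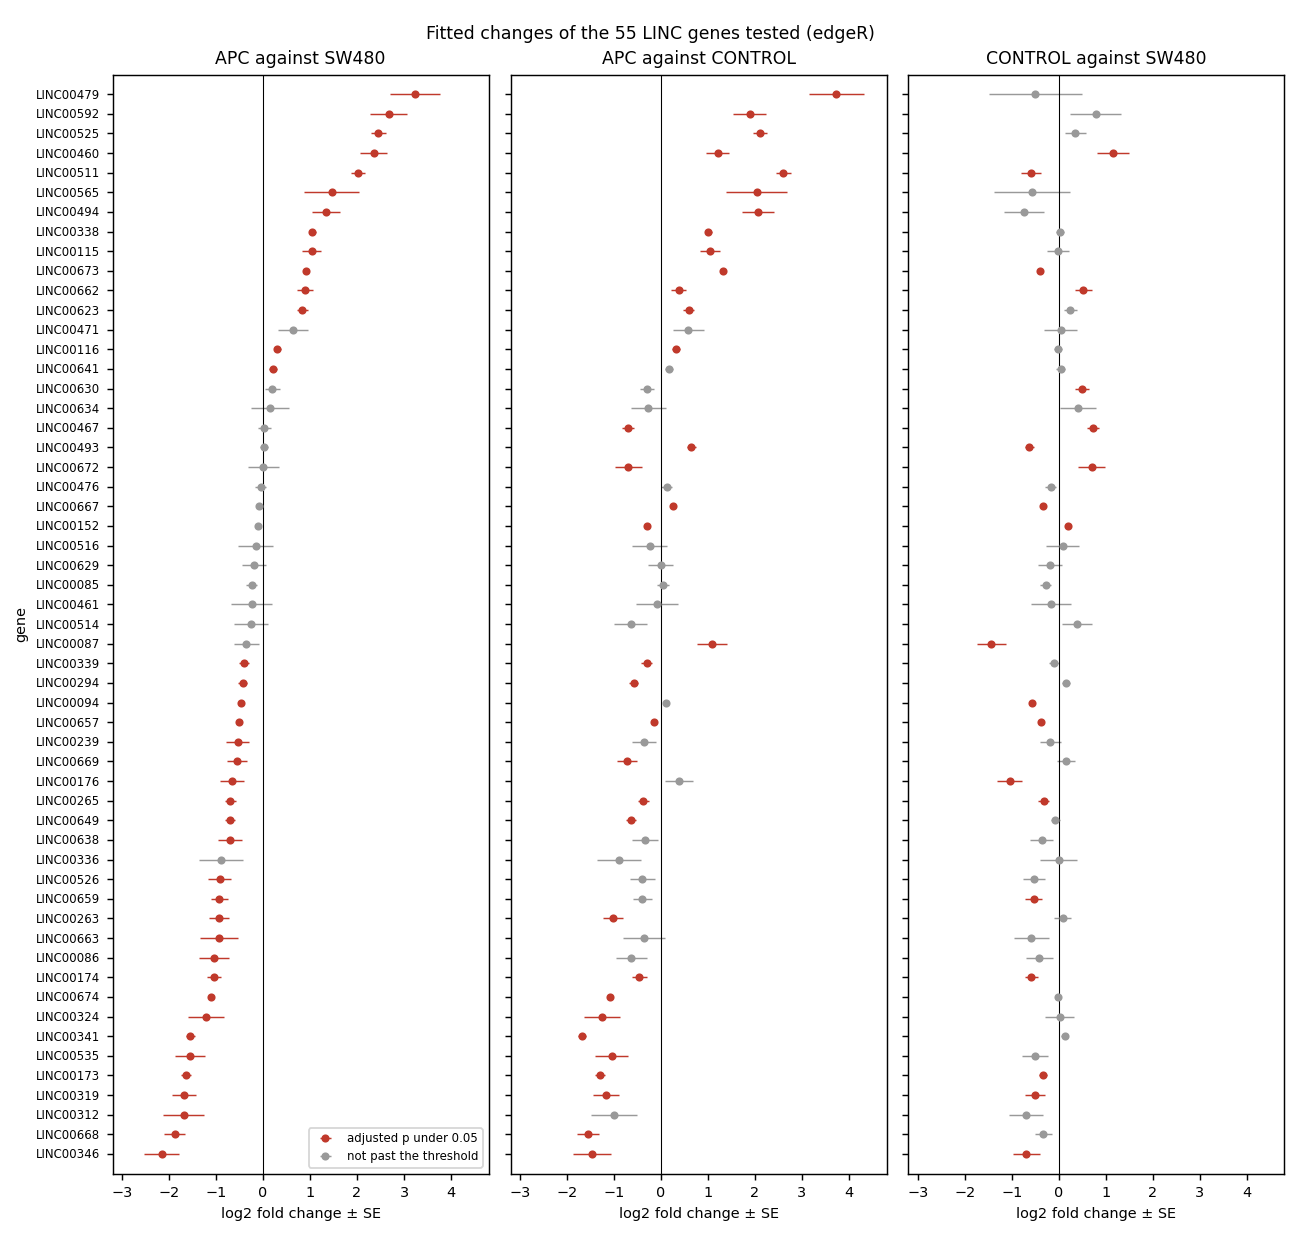
Log2 fold changes (x axis, ± SE) of the 55 LINC genes tested (y axis, ordered by the first panel) in the 3 comparisons named above the panels; red points passed an edgeR adjusted p of 0.05 and grey points did not, LINC00479 and LINC00592 having entered through the APC line alone. Values run from −2.16 to 3.23 in the first panel and from −1.68 to 3.73 in the second, and stay between −1.44 and 1.15 in the third.

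Among the genes that rose, LINC00511 and LINC00673 lie next to each other on the same strand of chromosome 17, between SOX9 and SLC39A11. Both are RNAs studied in several cancers, and GENCODE 29 lists the LINC00673 transcript under the LINC00511 gene. LINC00511 had 11.2, 9.54 and 9.76 CPM in the APC libraries, 1.88, 1.66 and 1.46 CPM in CONTROL and 3.02, 2.73 and 1.77 CPM in SW480. The APC line stood clear of both other lines, which overlapped each other. It rose by 2.02 ± 0.14 on the log2 scale against SW480 (edgeR adjusted p = 1.3e-14) and by 2.61 ± 0.16 against CONTROL (edgeR adjusted p = 1.9e-16). LINC00673 had 56.4, 55.9 and 52.5 CPM in APC, 23.8, 20.2 and 22.2 CPM in CONTROL and 30.1, 27.4 and 29.8 CPM in SW480. Here no pair of lines overlapped, with APC highest and CONTROL lowest. Its log2 fold change was 0.92 ± 0.06 against SW480 (edgeR adjusted p = 8.4e-16) and 1.31 ± 0.06 against CONTROL (edgeR adjusted p = 1.6e-19).

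SOX9, a transcription factor gene of intestinal crypt cells, did not share that pattern. Its log2 fold change in the APC line was −0.62 ± 0.05 against SW480 and 0.05 ± 0.05 against CONTROL, and the second missed the threshold (edgeR adjusted p = 0.32). SLC39A11, a zinc transporter gene on the other side, rose by 0.58 ± 0.09 against SW480 and 0.38 ± 0.09 against CONTROL on the log2 scale.

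LINC00525 is a spliced RNA from chromosome 7. It had 7.04, 7.64 and 6.90 CPM in the APC libraries, 1.72, 1.78 and 1.51 CPM in CONTROL and 0.969, 1.50 and 1.45 CPM in SW480. The APC libraries lay far above the rest, and each CONTROL library was slightly above each SW480 library. The log2 fold change was 2.45 ± 0.16 against SW480 (edgeR adjusted p = 3.3e-15) and 2.11 ± 0.16 against CONTROL (edgeR adjusted p = 5.8e-14). LINC00525 overlaps PKD1L1 on the other strand in GENCODE 29, and the strand used in counting is not given in the sources used here, so reads of the pair cannot be told apart. Its neighbour TNS3, which encodes the focal adhesion protein tensin 3, rose by 1.41 ± 0.04 against SW480 and 1.42 ± 0.04 against CONTROL. HUS1, a DNA damage checkpoint gene on its other side, fell by 0.37 ± 0.07 against CONTROL (edgeR adjusted p = 9.7e-06) and missed the threshold against SW480 (−0.10 ± 0.07, edgeR adjusted p = 0.21).

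LINC00460, an RNA reported as raised in several carcinomas, differed between all 3 lines. It had 2.36, 2.49 and 1.81 CPM in APC, 0.913, 1.17 and 0.831 CPM in CONTROL and 0.539, 0.268 and 0.483 CPM in SW480, with no overlap between lines. Against SW480 the log2 fold change was 2.35 ± 0.29 (edgeR adjusted p = 7.4e-09), against CONTROL 1.21 ± 0.24 (edgeR adjusted p = 4.5e-05), and for CONTROL against SW480 1.15 ± 0.35 (edgeR adjusted p = 0.0062). The empty-vector line therefore lay between the other two. EFNB2, the ephrin-B2 gene beside it, rose by 1.93 ± 0.10 against SW480 and 2.12 ± 0.10 against CONTROL, while CONTROL against SW480 missed the threshold for EFNB2 (−0.18 ± 0.12, edgeR adjusted p = 0.23). ERCC5, a DNA repair gene on its other side, fell by 0.66 ± 0.06 and 1.04 ± 0.06 in the same 2 APC comparisons.

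LINC00479 and LINC00592 had few reads outside the APC line. LINC00479 had 0.880, 0.810 and 1.52 CPM in the APC libraries, 0.0537, 0.184 and 0 CPM in CONTROL and 0, 0.161 and 0.161 CPM in SW480. LINC00592 had 1.27, 0.868 and 1.40 CPM in APC, 0.322, 0.369 and 0.260 CPM in CONTROL and 0.215, 0.161 and 0.161 CPM in SW480. For both, every APC library was above every other library. Both passed the filter through the APC line, so their fitted values are a description and not a test. The log2 fold change of LINC00479 was 3.23 ± 0.54 against SW480 and 3.73 ± 0.59 against CONTROL, values that rest on 6 reads in SW480 and 4 in CONTROL and depend on the small count that the fit adds. That of LINC00592 was 2.67 ± 0.40 against SW480 and 1.89 ± 0.35 against CONTROL.

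In gene order LINC00479 stands between TMPRSS2, a transmembrane serine protease gene, and RIPK4, a kinase gene of epithelial differentiation. TMPRSS2 rose by 4.09 ± 0.17 against SW480 and 3.78 ± 0.16 against CONTROL. RIPK4 averaged 100.3 CPM for APC, 4.43 CPM for CONTROL and 3.31 CPM for SW480, and rose by 4.92 ± 0.08 and 4.51 ± 0.08. LINC00592 stands in the keratin cluster of chromosome 12 between KRT80, which rose by 1.28 ± 0.04 and 1.46 ± 0.04, and KRT7, which rose by 5.20 ± 0.08 and 5.96 ± 0.09 against SW480 and CONTROL. Both LINC genes thus had a neighbour on each side that was higher in the APC line.

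LINC00494 lies beside SULF2, which encodes an enzyme that trims sulfate from heparan sulfate outside the cell. It had 1.76, 1.45 and 1.29 CPM in APC, 0.215, 0.614 and 0.260 CPM in CONTROL and 0.7, 0.536 and 0.537 CPM in SW480. The APC libraries were the highest and the other lines overlapped. The log2 fold change was 1.34 ± 0.30 against SW480 (edgeR adjusted p = 0.00018) and 2.08 ± 0.34 against CONTROL (edgeR adjusted p = 2.1e-06), and SULF2 rose by 1.90 ± 0.04 and 1.83 ± 0.04. PREX1, a gene for an activator of Rac on its other side, fell by 0.43 ± 0.08 and 0.21 ± 0.08.

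SNHG20 (LINC00338), whose RNA hosts a small nucleolar RNA, had 25.0, 23.8 and 25.5 CPM in the APC libraries, 12.5, 12.8 and 11.6 CPM in CONTROL and 13.0, 11.6 and 11.4 CPM in SW480. It was about as far above CONTROL as above SW480, with log2 fold changes of 1.01 ± 0.08 (edgeR adjusted p = 7.8e-14) and 1.05 ± 0.08 (edgeR adjusted p = 3.1e-14). It overlaps SEC14L1 on the same strand in GENCODE 29, and SEC14L1 rose by 0.91 ± 0.04 against CONTROL and 1.04 ± 0.04 against SW480. Reads in the shared stretch cannot be told apart. LINC00115 had 2.80, 2.31 and 3.04 CPM in APC, 1.40, 1.23 and 1.30 CPM in CONTROL and 1.56, 1.29 and 1.13 CPM in SW480, and rose by 1.05 ± 0.21 and 1.03 ± 0.21 against CONTROL and SW480.

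LINC00565 (SWINGN) was called higher in both comparisons but on few reads, and it reached 30 reads in all through the APC line. It had 0.990, 0.347 and 0.760 CPM in APC, 0.107, 0.307 and 0.104 CPM in CONTROL and 0, 0.536 and 0.215 CPM in SW480. One SW480 library lay inside the APC range. LINC00565 entered the test on APC replicates 1 and 3 and SW480 replicate 2, with 18, 13 and 10 reads. No other library reached the minimum of 0.547 CPM before TMM adjustment, so its fitted values are in part set by that entry. Its log2 fold change was 2.04 ± 0.65 against CONTROL (edgeR adjusted p = 0.0091) and 1.46 ± 0.59 against SW480 (edgeR adjusted p = 0.032). The second did not pass without APC replicate 1 (1.12), APC replicate 3 (1.42), SW480 replicate 1 (0.89) or SW480 replicate 3 (1.37).

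LINC00662 was higher in the APC line against SW480 by 0.90 ± 0.17 on the log2 scale (edgeR adjusted p = 4.4e-05) and against CONTROL by 0.38 ± 0.16 (edgeR adjusted p = 0.038). The call against CONTROL was lost without APC replicate 1 (0.28), CONTROL replicate 1 (0.21) or CONTROL replicate 3 (0.36). Its CONTROL libraries, at 3.65, 6.20 and 4.57 CPM, covered a range that reached both the APC libraries, at 6.98, 5.78 and 5.73 CPM, and the SW480 libraries, at 4.09, 2.73 and 3.12 CPM.

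**Figure D2:**
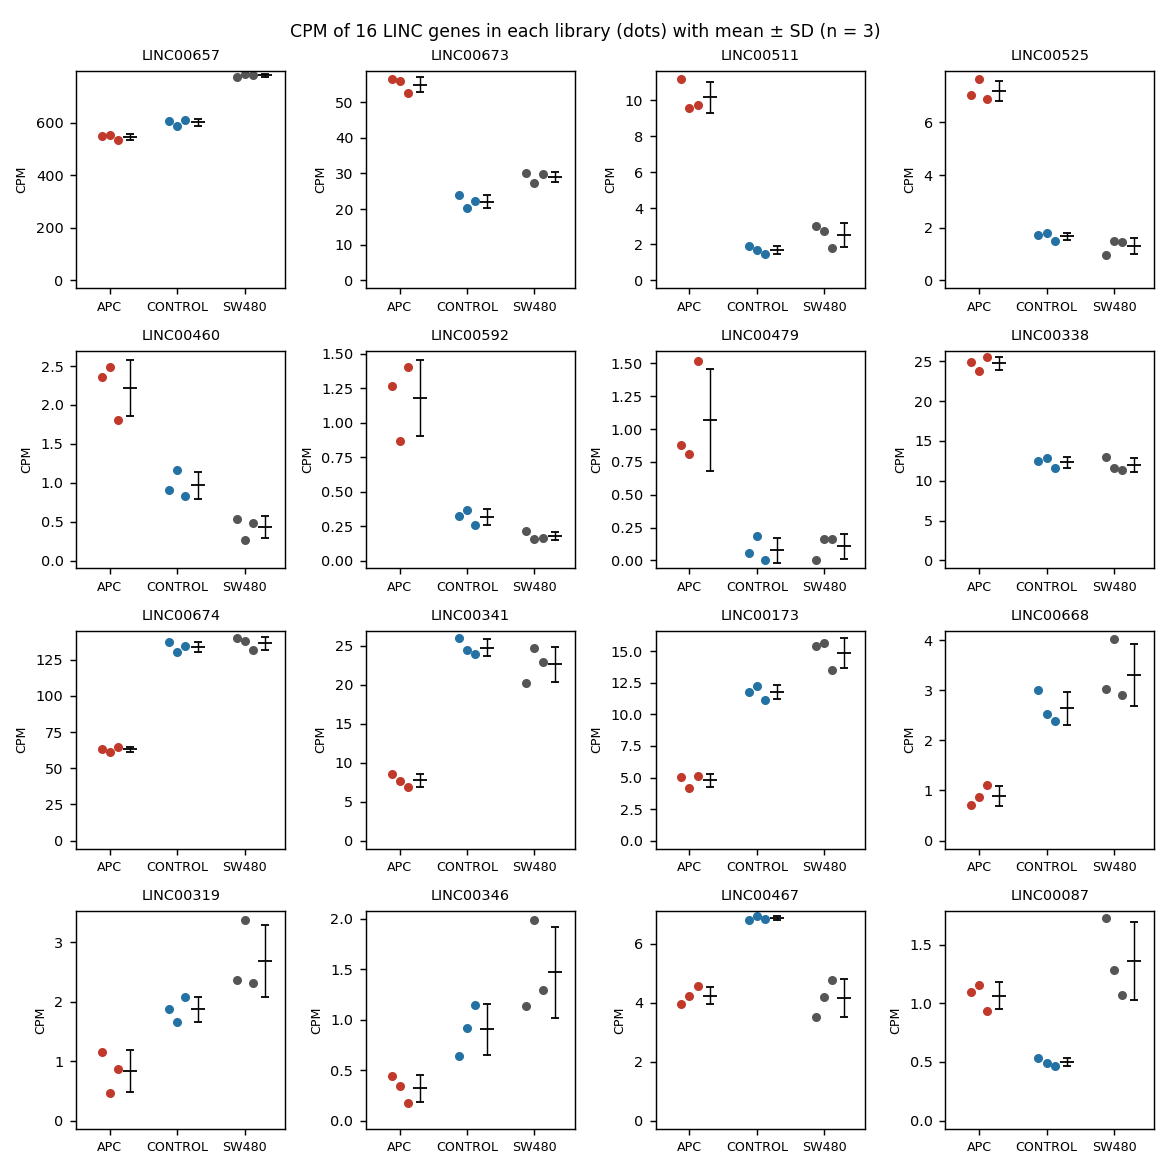
Level in CPM (y axis, linear) of 16 LINC genes in the APC, CONTROL and SW480 libraries (x axis); each dot is 1 library and the black mark is the mean ± SD of 3. LINC00525 lies at 6.90 to 7.64 CPM in the APC libraries, against 1.78 CPM or less in every CONTROL and SW480 library, and LINC00674 lies at 61.3 to 64.6 CPM in the APC libraries, against 130.4 CPM or more in the others.

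Among the genes that fell, LINC00674 came after NORAD in mean CPM in the SW480 line. It had 63.1, 61.3 and 64.6 CPM in the APC libraries, 137, 130.4 and 135 CPM in CONTROL and 140.2, 138 and 132 CPM in SW480. CONTROL and SW480 overlapped and the APC line lay far below both. It fell by 1.11 ± 0.04 against SW480 (edgeR adjusted p = 6.4e-22) and by 1.09 ± 0.04 against CONTROL (edgeR adjusted p = 1.4e-21), and CONTROL against SW480 missed the threshold at −0.03 ± 0.04 (edgeR adjusted p = 0.63). The genes on either side rose where they were called: KPNA2, a nuclear import gene, by 0.12 ± 0.04 against SW480, and AMZ2, a metallopeptidase gene, by 0.45 ± 0.05 against SW480 and 0.56 ± 0.05 against CONTROL. GENCODE 29 lists LINC00674 as a transcribed pseudogene, so its level is uncertain where a related gene shares sequence.

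LINC00341 is given in RefSeq as SYNE3, the gene of nesprin-3, a protein of the outer nuclear membrane. It had 8.58, 7.69 and 6.90 CPM in the APC libraries, 25.9, 24.4 and 23.9 CPM in CONTROL and 20.3, 24.7 and 22.9 CPM in SW480. The APC line was the only one apart. It fell by 1.55 ± 0.09 against SW480 (edgeR adjusted p = 1.1e-16) and by 1.68 ± 0.09 against CONTROL (edgeR adjusted p = 9.3e-18). The count table lists SYNE3 as a gene of its own as well, at 17.1 ± 0.651 CPM in APC, 30.9 ± 2.15 CPM in CONTROL and 27.8 ± 1.53 CPM in SW480 (SD, n = 3 each). SYNE3 fell by 0.71 ± 0.07 against SW480 and 0.85 ± 0.07 against CONTROL, so 2 entries of the locus were lower in the APC line, while its flanking genes CLMN and SNHG10 rose by 0.71 ± 0.08 and 0.53 ± 0.07 against SW480.

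LINC00173 showed a graded pattern. It had 5.06, 4.16 and 5.09 CPM in APC, 11.8, 12.3 and 11.2 CPM in CONTROL and 15.4, 15.7 and 13.5 CPM in SW480, with no overlap between any 2 lines. It fell by 1.64 ± 0.10 against SW480 (edgeR adjusted p = 9.5e-16) and by 1.30 ± 0.11 against CONTROL (edgeR adjusted p = 1.5e-12), and CONTROL against SW480 was −0.34 ± 0.09 (edgeR adjusted p = 0.0015). MED13L, a Mediator subunit gene beside it, fell by 0.72 ± 0.04 against SW480 and 0.69 ± 0.04 against CONTROL. MAP1LC3B2, on the other side, missed the threshold in both (0.005 ± 0.152, edgeR adjusted p = 0.98, and −0.235 ± 0.148, edgeR adjusted p = 0.16).

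LINC00668 and LINC00319 fell at lower levels. LINC00668 had 0.715, 0.868 and 1.11 CPM in the APC libraries, 3.01, 2.52 and 2.39 CPM in CONTROL and 3.02, 4.02 and 2.90 CPM in SW480, and LINC00319 had 1.16, 0.463 and 0.877 CPM in APC, 1.88, 1.66 and 2.08 CPM in CONTROL and 2.37, 3.38 and 2.31 CPM in SW480. In both, no APC library reached the range of either other line. LINC00668 fell by 1.88 ± 0.23 against SW480 (edgeR adjusted p = 4.8e-09) and by 1.56 ± 0.24 against CONTROL (edgeR adjusted p = 6.2e-07). LINC00319 fell by 1.68 ± 0.25 (edgeR adjusted p = 5.1e-07) and 1.16 ± 0.28 (edgeR adjusted p = 0.00038) in the same comparisons. Beside LINC00668, the gene ARHGAP28 fell by 2.42 ± 0.36 against SW480 and the phosphatase gene PTPRM rose by 1.45 ± 0.37, so the neighbours of LINC00668 went opposite ways.

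LINC00346 (PRECSIT), described as a p53-regulated RNA, had the largest fall against SW480 of the 55 genes tested. It had 0.440, 0.347 and 0.175 CPM in the APC libraries, 0.644, 0.921 and 1.14 CPM in CONTROL and 1.13, 1.98 and 1.29 CPM in SW480. CONTROL and SW480 overlapped slightly and APC was below both. It fell by 2.16 ± 0.36 against SW480 (edgeR adjusted p = 3e-06) and by 1.47 ± 0.41 against CONTROL (edgeR adjusted p = 0.0019). ING1, a chromatin gene beside it, fell by 0.89 ± 0.07 and 0.98 ± 0.07.

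Further genes of the set fell in the APC line. LINC00324 fell by 1.22 ± 0.38 against SW480 and 1.25 ± 0.38 against CONTROL. LINC00535 (CIBAR1-DT) fell by 1.55 ± 0.33 against SW480 and 1.05 ± 0.36 against CONTROL (edgeR adjusted p = 0.0097), and the second was lost without APC replicate 2 (−0.81) or CONTROL replicate 1 (−0.84). OLMALINC (LINC00263), an RNA first described in oligodendrocytes, fell by 0.93 ± 0.22 against SW480 and 1.02 ± 0.22 against CONTROL. Its neighbour SCD, a gene of fatty acid desaturation, went the other way, higher by 0.54 ± 0.15 and 0.63 ± 0.15. WNT8B, on the other side of OLMALINC, was also higher, by 3.26 ± 0.31 and 3.11 ± 0.31. LINC00174 fell by 1.05 ± 0.14 against SW480 and 0.46 ± 0.16 against CONTROL, and LINC00669 (MIR924HG) fell by 0.56 ± 0.22 and 0.72 ± 0.21. The LINC00669 call against SW480 was lost without APC replicate 2 (−0.50) or SW480 replicate 3 (−0.51).

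LINC00265, LINC00294 and LINC00649, outside the rule for named genes, fell by 0.70 ± 0.12, 0.43 ± 0.10 and 0.71 ± 0.10 against SW480 and by 0.38 ± 0.12, 0.58 ± 0.10 and 0.63 ± 0.10 against CONTROL. LINC00294 overlaps TCP11L1 on the same strand, which fell by 0.68 ± 0.08 and 0.64 ± 0.08, so reads of that pair cannot be told apart. CSTF3 overlaps LINC00294 on the other strand, so its reads cannot be told apart without the strand. CSTF3 rose by 0.36 ± 0.05 against SW480 and missed the threshold against CONTROL (0.09 ± 0.05, edgeR adjusted p = 0.085). LINC00623, which lies in a duplicated stretch of the genome and is uncertain for that reason, rose by 0.84 ± 0.12 and 0.59 ± 0.12. LINC00641 rose by 0.21 ± 0.09 against SW480 (edgeR adjusted p = 0.033) and missed the threshold against CONTROL (0.18 ± 0.09, edgeR adjusted p = 0.078). Its call was lost without APC replicate 1 (0.16), SW480 replicate 1 (0.14) or SW480 replicate 2 (0.22). LINC00239, LINC00312, LINC00526, LINC00638 (VESTAR) and LINC00663 were called lower against SW480 and missed the threshold against CONTROL, with values of −0.34 to −0.99 there. The LINC00239 call was lost without APC replicate 1 or 2, CONTROL replicate 2 or SW480 replicate 1 or 3 (−0.57 to −0.39), and the LINC00663 call without APC replicate 1 or 3 or SW480 replicate 1 or 2 (−0.93 to −0.57). LINC00312 passed against CONTROL without CONTROL replicate 2 (−1.18), but it needed SW480 libraries to enter the test. The LINC00638 call was lost without APC replicate 2 (−0.60) or SW480 replicate 3 (−0.58). LINC00336, LINC00461 (MIR9-2HG), LINC00471, LINC00476 (ERCC6L2-AS1), LINC00516 and LINC00629 were called in no comparison, and LINC00516 was listed in 3 copies. LINC00336 passed against SW480 without SW480 replicate 3 (−1.21) and LINC00471 without APC replicate 1 (0.84), and LINC00471 also passed against CONTROL without APC replicate 1 (0.79) or CONTROL replicate 3 (0.92).

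**Figure D3:**
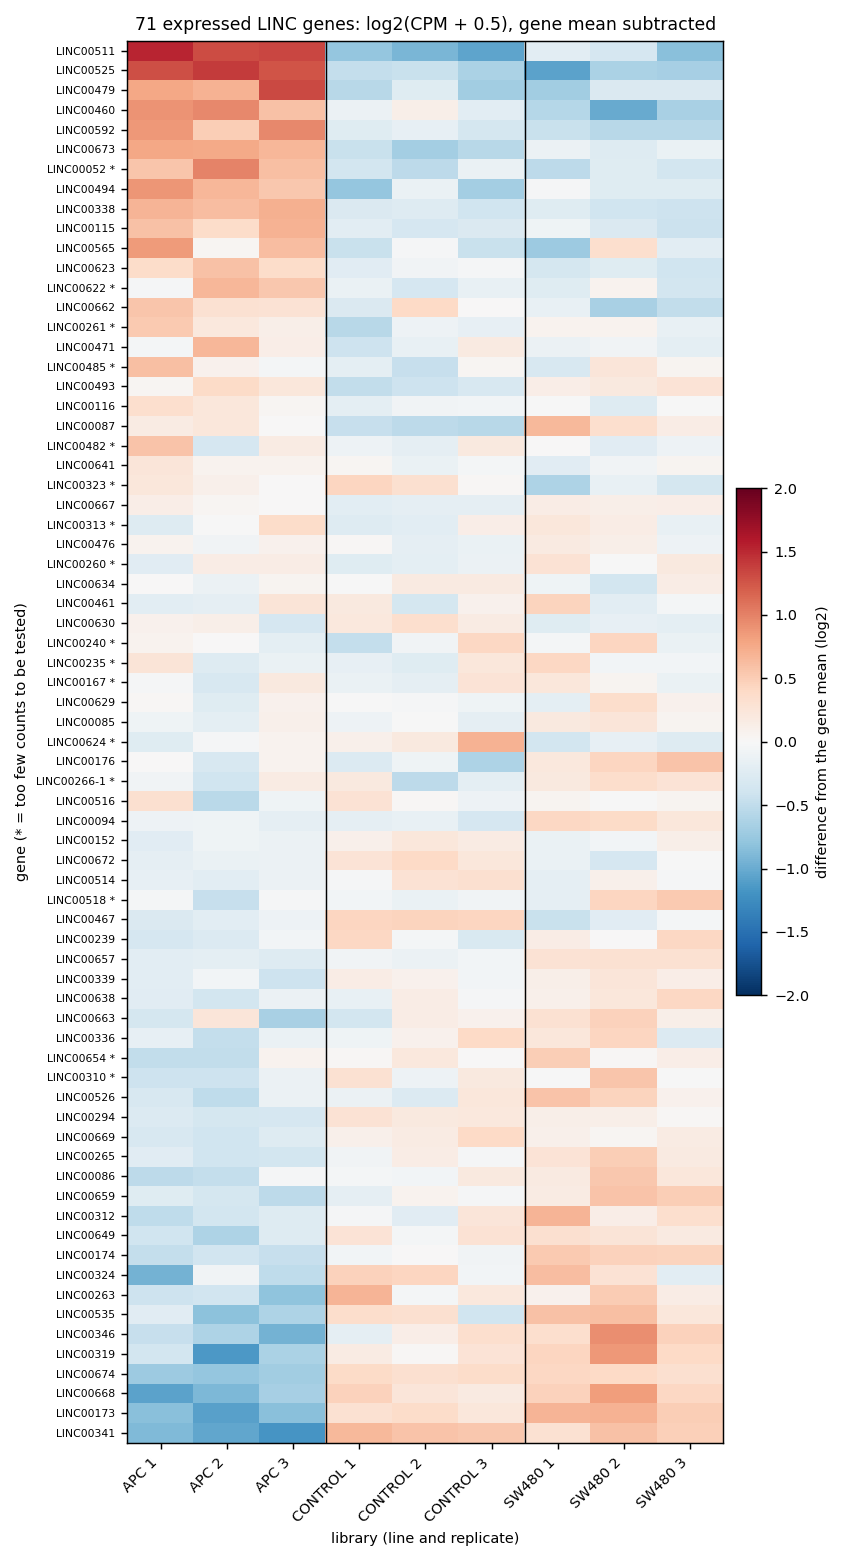
Log2(CPM + 0.5) of the 71 LINC genes (rows) in the 9 libraries (columns, APC then CONTROL then SW480), with each gene's mean over the libraries subtracted; red is above and blue below the mean, and a star marks the 16 genes with too few reads to be tested. LINC00511 at the top is red in all 3 APC libraries and blue in the other 6, and LINC00341 at the bottom shows the reverse.

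CONTROL against SW480 shows how far 2 lines without the APC plasmid differed. Of the 55 genes, 20 were called, 6 higher and 14 lower in CONTROL, against 50% of all genes tested, 25.3% higher and 24.7% lower. Their log2 fold changes had a median of −0.17, against −0.01, and a median size of 0.37, against 0.19. Called changes over 2-fold were 1 higher (LINC00460) and 2 lower (LINC00087 and LINC00176), against 1.68% and 3.22% of all genes. CONTROL and SW480 libraries did not overlap in 21 of the 55, against 56.6%. Of the 27 genes with a total below 300 reads, 6 were called, against 32.8% of all genes tested in that range.

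In several genes CONTROL was the line apart. LINC00467, which has been reported to encode a small mitochondrial peptide in colorectal cancer, had 3.96, 4.22 and 4.56 CPM in the APC libraries, 6.82, 6.94 and 6.86 CPM in CONTROL and 3.5, 4.18 and 4.78 CPM in SW480. It was higher in CONTROL than in SW480 by 0.73 ± 0.13 (edgeR adjusted p = 1.3e-05) and lower in APC than in CONTROL by 0.70 ± 0.13 on the log2 scale (edgeR adjusted p = 1.2e-05), whereas APC and SW480 overlapped (0.03 ± 0.14, edgeR adjusted p = 0.86). LINC00087 (SMIM10L2B) showed the reverse, with 1.10, 1.16 and 0.935 CPM in APC, 0.537, 0.491 and 0.468 CPM in CONTROL and 1.72, 1.29 and 1.07 CPM in SW480. Its log2 fold change was −1.44 ± 0.30 for CONTROL against SW480 (edgeR adjusted p = 0.00018) and 1.08 ± 0.33 for APC against CONTROL (edgeR adjusted p = 0.0037). It has a close copy, LINC00086 (SMIM10L2A), for which RefSeq lists the same older names, and how reads were divided between the copies is not given in the sources used here, so both are uncertain. For these genes the APC line differed from CONTROL and not, by the test, from the parent.

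LINC00176 (C20orf204) fell by 1.04 ± 0.27 in CONTROL against SW480 (edgeR adjusted p = 0.0015), and LINC00659 by 0.54 ± 0.17 (edgeR adjusted p = 0.0096). The LINC00659 call was lost without CONTROL replicate 1 (−0.46) or SW480 replicate 2 (−0.45). Both genes were also lower in APC than in SW480, LINC00659 by 0.93 ± 0.18 (edgeR adjusted p = 3.5e-05) and LINC00176 by 0.66 ± 0.25 (edgeR adjusted p = 0.02). This LINC00176 call was lost without APC replicate 2 (−0.49) or SW480 replicate 3 (−0.54). For APC against CONTROL both missed the threshold, at −0.40 ± 0.20 for LINC00659, whose libraries did not overlap, and 0.39 ± 0.30 for LINC00176. LINC00667 was lower in CONTROL than in SW480 by 0.33 ± 0.07 (edgeR adjusted p = 0.00011) and higher in APC than in CONTROL by 0.26 ± 0.07 (edgeR adjusted p = 0.0013). LINC00630 was higher in CONTROL by 0.50 ± 0.15 (edgeR adjusted p = 0.007). LINC00672 (LASP1NB) was higher in CONTROL by 0.70 ± 0.29 (edgeR adjusted p = 0.042), a call that was lost without any one of the CONTROL replicates, SW480 replicate 1 or SW480 replicate 2 (0.55 to 0.74). LINC00511, LINC00319 and LINC00346 were called lower in CONTROL by 0.59 ± 0.21, 0.51 ± 0.21 and 0.69 ± 0.28, and each of these calls was lost without SW480 replicate 2 (−0.52, −0.31 and −0.42). The LINC00511 call was also lost without CONTROL replicate 3 (−0.50) or SW480 replicate 1 (−0.44). Those of LINC00319 and LINC00346 were lost without CONTROL replicate 1 (−0.51 and −0.49) or CONTROL replicate 2 (−0.44 and −0.71) as well.

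Of the 71 genes, 11 are now listed as protein coding. MTLN (LINC00116), which encodes the mitochondrial microprotein mitoregulin, had 21.8, 20.1 and 17.7 CPM in the APC libraries, 14.9, 16.2 and 16.5 CPM in CONTROL and 17.0, 14.3 and 17.0 CPM in SW480. It rose by 0.31 ± 0.08 against SW480 (edgeR adjusted p = 0.0015) and 0.33 ± 0.08 against CONTROL (edgeR adjusted p = 0.00086), with all APC libraries above the other 6. SMIM26 (LINC00493), another small membrane protein gene, had 13.6, 17.3 and 15.5 CPM in APC, 9.24, 9.77 and 10.5 CPM in CONTROL and 14.5, 15.2 and 16 CPM in SW480. CONTROL was the low line: APC against CONTROL was 0.65 ± 0.09 (edgeR adjusted p = 1.9e-07), CONTROL against SW480 was −0.63 ± 0.09 (edgeR adjusted p = 8e-07) and APC against SW480 missed the threshold (0.02 ± 0.09, edgeR adjusted p = 0.84). Its neighbour SEC23B, a coat protein gene of vesicle transport, was also lowest in CONTROL, at 86.4 CPM in APC, 49.7 CPM in CONTROL and 70.3 CPM in SW480. DTD1, on the other side, had 38.9, 37.3 and 59.2 CPM in the same order, and APC against CONTROL missed the threshold for it (0.06 ± 0.05, edgeR adjusted p = 0.35).

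BRD3OS (LINC00094), which overlaps BRD3 on the other strand, had 32.1, 32.5 and 30.6 CPM in the APC libraries, 30.6, 31.1 and 27.4 CPM in CONTROL and 46.4, 45.6 and 40.7 CPM in SW480. SW480 was the line apart, with a fall of 0.48 ± 0.06 in APC against SW480 (edgeR adjusted p = 1.4e-08) and of 0.58 ± 0.06 in CONTROL against SW480 (edgeR adjusted p = 1.2e-09). BRD3 fell by 0.30 ± 0.06 and 0.37 ± 0.06 in the same comparisons, and reads of the pair cannot be told apart without the strand. LINC00085 (SPACA6, a gene of sperm membrane fusion), LINC00514 (GREP1) and LINC00634 (SMIM45) were called in no comparison, although LINC00085 passed for APC against SW480 without APC replicate 3 (−0.32) or SW480 replicate 3 (−0.30) and for CONTROL against SW480 without SW480 replicate 3 (−0.34). LINC00086 (SMIM10L2A) fell by 1.04 ± 0.31 against SW480 (edgeR adjusted p = 0.0037) and missed the threshold against CONTROL (−0.63 ± 0.34, edgeR adjusted p = 0.096), which it passed without APC replicate 3 (−0.95).

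Too few reads to be tested were found for 16 genes, with totals of 30 to 72. LINC00052, singled out after its values were seen, had 36 reads in the 3 APC libraries, 4 in the CONTROL libraries and 3 in the SW480 libraries. It reached 30 reads through the APC line alone, so its excess there is in part set by the choice of genes and is given as a description. Its levels were 0.550, 0.925 and 0.584 CPM in APC, 0.0537, 0 and 0.156 CPM in CONTROL and 0, 0.107 and 0.0537 CPM in SW480, without overlap between APC and the rest. The ratio of APC to SW480 was 12.7, with a 95% counting interval of 4.03 to 64.7 that covers counting error only. LINC00310, at the threshold, had 2, 13 and 15 reads in APC, CONTROL and SW480, and was 7.06 times lower in APC than in SW480 (1.64 to 63.6) and 6.31 times lower than in CONTROL (1.43 to 57.6). It had 17 reads outside CONTROL and 15 outside SW480, so its low level in APC is in part set by the choice of genes and is a description. Its other listed transcript had 2, 1 and 0 reads in the APC libraries, 1, 2 and 3 in CONTROL and 0, 2 and 4 in SW480. LINC00261, an RNA of endoderm cells made beside FOXA2, had 21, 6 and 13 reads in the same order. FOXA2, an endoderm transcription factor gene, rose in the APC line by 1.04 ± 0.17 against SW480 and 1.79 ± 0.20 against CONTROL. LINC00482 had 16, 11 and 9 reads in APC, CONTROL and SW480.

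Neighbours were looked at for every gene tested, as the nearest tested gene on each side in RefSeq order and without distances. Across the 55 genes, the log2 fold change of a gene and the mean of its 2 neighbours had a Pearson r of 0.532 with APC set against SW480, 0.453 with APC set against CONTROL and 0.252 with CONTROL set against SW480. Across 14192 genes of all kinds r was 0.267, 0.3 and 0.243. The 55 include LINC00479 and LINC00592, which entered the test through the APC line alone and had a higher neighbour on each side. The r values of the APC comparisons are thus in part set by that entry, and r without these genes was not computed. LINC00516 had a neighbour entry, LOC101101776, with values identical to its own. LINC00511 and LINC00673 were each other's neighbour, as were LINC00667 and LINC00526, so these pairs entered r from both sides. Some genes, such as LINC00338 with SEC14L1, had an overlapping gene as a neighbour. The r values are descriptions across genes, which share libraries and, in places, reads, and the difference between the sets was not tested. In GENCODE 29, 55 of the 58 noncoding genes could be matched. Of these, 4 had a coding gene starting on the other strand within 1 kb, 6 were overlapped by a coding gene on the other strand and 4 by one on the same strand. LINC00649 and LINC00476 were among the 6, and LINC00339 and LINC00261 among those overlapped on the same strand. LINC00493 and LINC00514, now listed as protein coding, were overlapped on the same strand too. Reads of all such pairs cannot be told apart here.

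**Figure D4:**
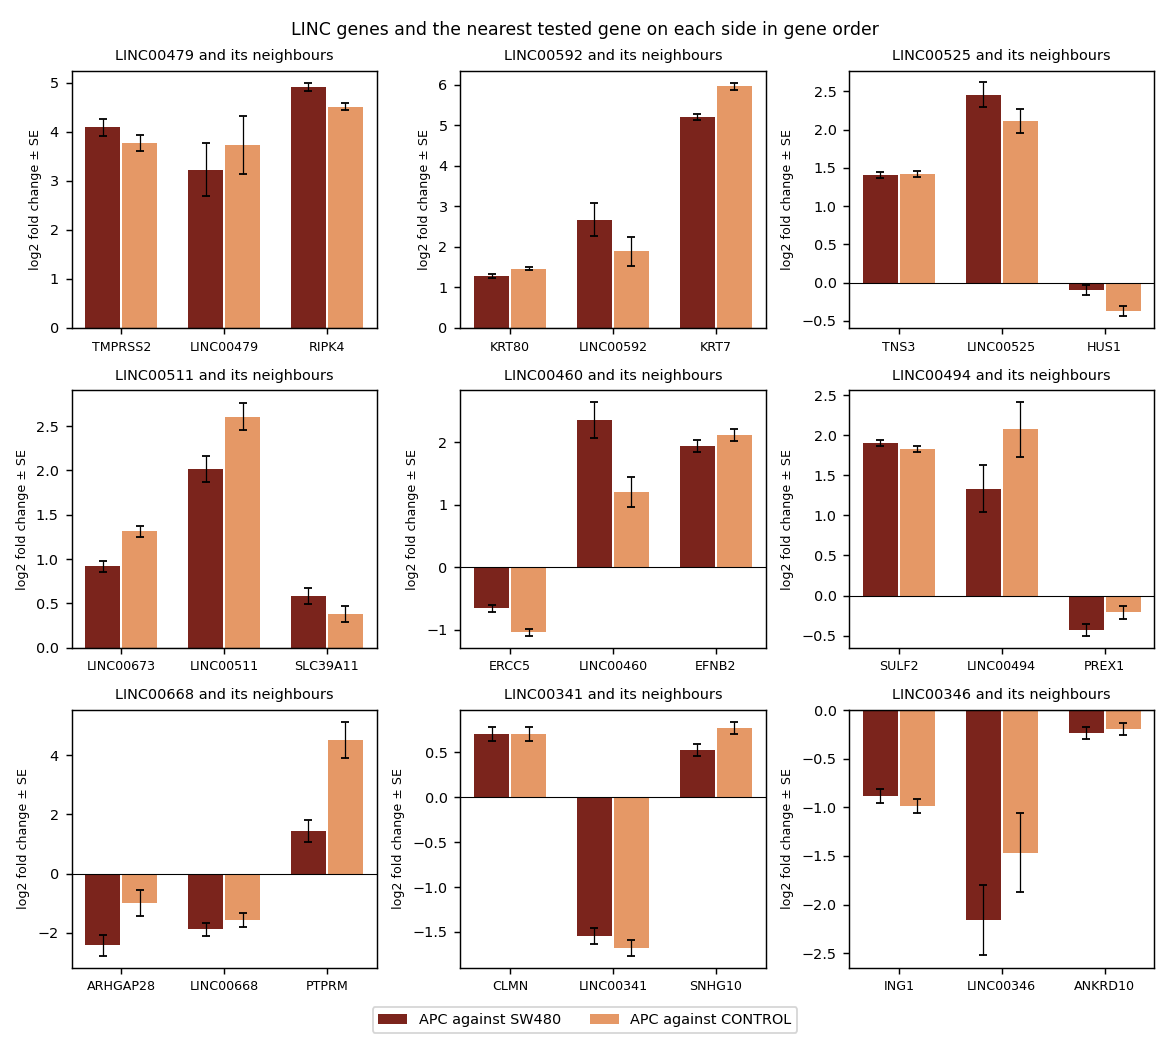
Log2 fold change (y axis, ± SE) of 9 LINC genes, in the middle of each panel, and of the nearest tested gene on each side in gene order, for APC against SW480 (dark) and APC against CONTROL (light). LINC00479 and LINC00592 have both neighbours above 0, with RIPK4 at 4.92 and KRT7 at 5.20 against SW480, whereas LINC00341 is at −1.55 between CLMN at 0.71 and SNHG10 at 0.53.

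Named long noncoding RNAs without a LINC name gave a setting for these counts. From a list of 54, 39 were in the count table and 29 were tested. In the APC line 9 were higher and 9 lower against SW480, 9 and 8 against CONTROL, and in CONTROL 6 were higher and 5 lower against SW480. Their median log2 fold changes were −0.08, −0.08 and −0.03 in the same order, beside −0.25, −0.30 and −0.17 for the LINC genes, and the difference between the sets was not tested.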

How the data were processed

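The authors deposited whole-number read counts per RefSeq transcript, which were not normalised, and RPKM values made from them, per the file headers and the values. For 100% of the nonzero values, RPKM could be rebuilt from count, transcript length and a library constant (relative tolerance 0.0001). Tools were Trimmomatic, TopHat and GATK with build hg19, per the submitters' processing notes. How the reads were counted, with which tool, strand setting and handling of shared reads, is not given in the sources used here.

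Of 39276 transcripts, the one with the highest total count was used per gene, which gave 20878 genes. Of 65 names altered to dates, 62 were repaired. The genes were named through RefSeq for GRCh38.p14 by accession (60), symbol (1) or synonym (10), and synonyms shared by several genes were settled by the GENCODE 29 name of the accession. No gene coordinates are given, because the build differs, except those of RefSeq promoter windows.

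Counts of all 9 libraries were fitted in edgeR 4.0.16 (R 4.3.3; TMM, filterByExpr, robust quasi-likelihood), with Benjamini-Hochberg adjustment over 14255 genes. The SE was the log2 fold change divided by the square root of F. The biological coefficient of variation was 3.56%. The scripts were tested on simulated data. Replicates differed by more than sampling noise (chi-square per degree of freedom 1.34 to 5.38) and were each counted as 1 sample.

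The genes and lists were chosen with earlier results of these data known. Named genes were up to 8 per direction and comparison with the largest change, no overlap of libraries and at least 1 CPM in the higher line, the 10 highest by RPKM, renamed genes, 24 genes with a known background (13 of them present), those at the threshold, and neighbours. Genes outside this rule are named as such. Alternatives were DESeq2 1.42.0, RLE scaling, no filter on low counts, summed transcripts, limma 3.58.1 on log2 RPKM, fits of 2 lines, a minimum fold of 1.5, a replicate block and leaving out each library.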

Additional observations from a re-analysis of the deposited data

How the results depend on the processing

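The called counts were 39 (APC against SW480), 35 (APC against CONTROL) and 20 (CONTROL against SW480). DESeq2 gave 32, 32 and 15, and RLE scaling 39, 35 and 20. Without a filter on low counts 45, 38 and 21 of 71 were called, against 57.6%, 55.5% and 38.8% of all genes with a read. A test against a fold of 1.5 gave 21 (10 lower), 17 (10 higher, 7 lower) and 1 (0 higher, 1 lower), because it asks for more than a difference from 0. Leaving out 1 library at a time gave 36 to 41 (14 to 16 higher, 21 to 25 lower), 33 to 37 (16 to 18, 16 to 19) and 15 to 23 (4 to 8, 9 to 16) in the same order, the lowest of the last, 9 lower, without SW480 replicate 2. The cause of that drop was not tested. For the other alternatives, the replicate block below included, the share of all genes called is not given here. Whether those counts moved with the counts of all genes therefore cannot be told.

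Whether the replicate numbers pair the plates was not settled. Same-numbered libraries deviated together with correlations of −0.214 to 0.344, and differently numbered ones with −0.22 to 0.209. The highest value was that of replicate 1 of APC and SW480. With the number as a replicate block 40, 35 and 19 were called.

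Over 2312 values of the 43 named genes tested, 2176 kept their direction and side of the threshold under the alternatives. A further 111 no longer passed, 25 newly passed and 0 that had passed changed sign. The naming rule favoured genes with large called changes, so these counts do not describe all 55 genes tested. Depth limits the 16 untested genes, whose totals are 30 to 72 reads. Single lines, parallel plates and unstated strand limit all values.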

Other observations

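The 16 LINC genes with too few reads were also fitted without a filter on low counts, where edgeR called 6 of them (APC against SW480), 4 (APC against CONTROL) and 2 (CONTROL against SW480). In that fit 33.8%, 26.4% and 11.9% of the 772 genes of all kinds that the filter had left out, with totals in the same range, were called. Among all genes with a read the shares were 57.6%, 55.5% and 38.8%. LINC00622 had 29 reads in the APC line, 10 in CONTROL and 11 in SW480, and was higher in APC by 1.47 ± 0.53 on the log2 scale against SW480 (edgeR adjusted p = 0.011) and by 1.55 ± 0.54 against CONTROL (edgeR adjusted p = 0.0087). LINC00654 had 4, 13 and 18 reads in the same lines and was lower in APC against SW480 (−1.98 ± 0.76, edgeR adjusted p = 0.017). LINC00323 had 22, 28 and 9 reads, and both derivative lines were above SW480, APC by 1.35 ± 0.58 (edgeR adjusted p = 0.037) and CONTROL by 1.65 ± 0.55 (edgeR adjusted p = 0.0089). LINC00624 had 20, 37 and 15 reads and was higher in CONTROL than in SW480 by 1.33 ± 0.46 (edgeR adjusted p = 0.011), and it lies in duplicated sequence, so its level is uncertain. LINC00261 was higher in APC than in CONTROL by 1.79 ± 0.66 (edgeR adjusted p = 0.014) and did not pass against SW480 (0.77 ± 0.55, edgeR adjusted p = 0.24). LINC00622 and LINC00261 had 21 and 19 reads outside the APC line and LINC00654 had 17 outside SW480, so that they reached 30 reads through the line in which they were high. These genes were chosen after their values were seen, and the values rest on few reads.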
